A study of Rattus norvegicus with 33 samples.

Results

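The genes described here were 10 markers of the mural cells of blood vessels: Acta2, Myh11, Tagln and Cnn1, which belong to the contractile apparatus of smooth muscle, Rgs5, Pdgfrb, Abcc9, Cspg4 and Notch3, which are used to mark pericytes, and Mcam, an adhesion molecule of the vessel wall. They were listed by name, and each was represented by its brightest row among the array rows assigned to a single gene symbol. They were 10 of 14506 genes with a single symbol. Abcc9 alone had more than 1 row. Its 2 rows differed by 0.0055 to 0.347 on the log2 scale over the arrays, with a median difference of 0.06.

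Pericytes sit on capillaries and smooth muscle cells ring arterioles, and both can contract and so set the blood flow through a muscle. Endothelial cells recruit pericytes by releasing PDGF-B, which binds the receptor encoded by Pdgfrb, and Notch3 receives Notch ligands from neighbouring cells and keeps smooth muscle differentiated. The contractile genes are switched on by serum response factor and its partner myocardin, which bind a sequence named the CArG box. None of these genes belongs to 1 cell type alone: fibroblasts of injured tissue also express Acta2, Tagln and Pdgfrb, endothelial cells express Mcam, and muscle fibres express Abcc9, which encodes a subunit of the ATP-sensitive potassium channel.

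Expression was measured on 33 arrays of soleus, a slow calf muscle, with 1 female Wistar rat per array and 3 rats in each of 11 groups. In the spinal cord experiment (15 arrays) the cord was transected at 9 weeks of age, and the groups were SCI-ES 1, 3 and 7 days, in which the paralysed muscle was driven by an implanted stimulator for 1 hour a day from 16 weeks after transection, SCI without stimulation, and Sham-SCI with laminectomy only. The SCI-ES and SCI rats also had the gastrocnemius tendon cut 14 weeks after transection, which the Sham-SCI rats did not, so injury and tenotomy cannot be told apart in SCI against Sham-SCI. The stimulator was implanted in the same operation in SCI-ES rats. SCI rats had the surgery without a stimulator and were studied 21 days after it. In the overload experiment (18 arrays) uninjured rats of 22 to 23 weeks had gastrocnemius ablation (GA) or sham surgery (Sham-GA). GA was the same cut of the gastrocnemius tendon as in the SCI and SCI-ES rats, and it loads the soleus. The muscle was taken 1, 3 or 7 days later. The series text gives 2 days in place of 3, and the sample titles were followed. Each sample title names a different sample, but nothing says how arrays were batched.

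Array medians lay between 6.45 and 6.54. All 9 skeletal muscle markers were bright throughout, with slow myosin heavy chain (Myh7) at 11.27 to 13.66 and skeletal actin (Acta1) at 13.98 to 14.14. Among the shams, 2 arrays stood apart most. In Sham-GA 3 days replicate 2, the deviation from that day's mean correlated on average at r = 0.25 with the GA arrays and at -0.74 with the other Sham-GA arrays over 9839 genes. For Sham-GA 1 day replicate 1 the averages were 0.07 and -0.57 over 9764 genes. Other arrays also lay nearer to the other arm, less strongly, and were not set aside as a group. Their averages with GA and with Sham-GA arrays were -0.10 and -0.41 for Sham-GA 7 days replicate 3. They were -0.32 and -0.02 for GA 3 days replicate 2, and -0.17 and -0.12 for GA 1 day replicate 2. Values without the 2 shams are given beside several results of the overload experiment. Both were more like the GA arrays than like the other shams. Leaving them out therefore tends to widen differences between the arms, and passes gained that way are no separate support.

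RefSeq gives the stretch around the gene start (250 bases before it to 50 after it, rat build GRCr8) for 6 of the 10 genes, namely Acta2, Cnn1, Rgs5, Abcc9, Cspg4 and Notch3. The 250 bases before the start are shown for Acta2, Rgs5 and Notch3, since these genes were all called higher at 7 days than at 1 day after surgery in the overload experiment. Capitals mark a CArG box with at most 1 departure in its central A/T stretch, or the motif TGGGAA, which contains the core bound by the Notch effector RBPJ.
Acta2 (chr1:241172454-241172753, minus strand, first 250 bases): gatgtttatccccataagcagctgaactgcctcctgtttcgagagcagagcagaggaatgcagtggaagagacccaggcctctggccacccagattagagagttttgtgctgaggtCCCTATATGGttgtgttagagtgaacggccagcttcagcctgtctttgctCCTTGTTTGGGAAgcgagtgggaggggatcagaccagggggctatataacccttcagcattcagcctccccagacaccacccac
Rgs5 (chr13:84380827-84381126, plus strand, first 250 bases): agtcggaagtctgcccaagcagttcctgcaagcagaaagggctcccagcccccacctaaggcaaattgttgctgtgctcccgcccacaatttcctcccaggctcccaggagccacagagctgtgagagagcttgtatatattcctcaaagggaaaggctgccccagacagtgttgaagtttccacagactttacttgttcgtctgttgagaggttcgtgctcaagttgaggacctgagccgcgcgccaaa
Notch3 (chr7:11834536-11834835, minus strand, first 250 bases): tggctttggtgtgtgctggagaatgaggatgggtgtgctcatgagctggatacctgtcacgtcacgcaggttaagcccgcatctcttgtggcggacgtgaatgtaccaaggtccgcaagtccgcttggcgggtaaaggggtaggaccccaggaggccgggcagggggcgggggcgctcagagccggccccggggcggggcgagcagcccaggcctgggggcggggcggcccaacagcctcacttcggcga
Both strands of the whole 300 bases were searched. No exact CArG box lay in any of the 6 stretches, against 1.64% of all 27457 rat promoters in the same table. Acta2 held 2 with 1 departure, CCCTATATGG starting 134 bases and CCTTGTTTGG starting 84 bases before the gene start; 9.27% of all promoters held at least 1 such box or an exact one. The second of these overlaps the TGGGAA of Acta2, and Cnn1 and Notch3 held 1 TGGGAA each, on the reverse strand in Cnn1 and after the start in Notch3, against 25.1% of all promoters. These matches describe the letters only.

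Across all groups the members moved over a limited range. The group means spanned 7.01 to 8.17 for Myh11, 8.56 to 10.47 for Tagln, 9.99 to 11.51 for Rgs5 and 8.79 to 10.46 for Pdgfrb, whereas Cnn1 spanned 6.21 to 6.85 and Abcc9 10.22 to 11.05. The pooled standard deviation between arrays of a group was smallest for Cnn1 (0.19) and largest for Mcam (0.44). Cspg4, which encodes the proteoglycan NG2, separated the experiments: it lay between 6.59 and 7.53 in the 15 spinal cord arrays and between 7.59 and 8.65 in the 18 overload arrays. Such a full separation was seen for 8 of 14453 genes (0.0554%). Age, surgery and array processing differed or may have differed between the experiments, and cannot be told apart.

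Does paralysis change these genes? Pdgfrb was the member with the largest difference between SCI and Sham-SCI. Its log2 values were 9.38, 9.88 and 9.97 in SCI soleus, against 8.63, 9.09 and 8.66 in Sham-SCI soleus. Every SCI array was above every Sham-SCI array, and the difference was 0.95 ± 0.26 (SE), or 1.93-fold. Notch3 was also separated, at 8.67, 8.77 and 8.72 in SCI soleus against 8.15, 8.48 and 8.26 in Sham-SCI soleus, a difference of 0.42 ± 0.15. In limma with Benjamini-Hochberg adjustment over all genes, neither passed (unadjusted p = 0.0029 and adjusted p = 0.123 for Pdgfrb, adjusted p = 0.215 for Notch3). In whole muscle, a change in the number of cells of a type and a change of RNA per cell cannot be told apart.

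Abcc9 and Cspg4 pointed the other way. Abcc9 values were 10.97, 10.8 and 10.77 in SCI soleus, all below the 11.09, 11.01 and 11.05 of Sham-SCI soleus (difference -0.20 ± 0.13, adjusted p = 0.502). Cspg4 values were 6.85, 7.44 and 7.05 in SCI soleus and 7.47, 7.48 and 7.52 in Sham-SCI soleus (difference -0.38 ± 0.17, adjusted p = 0.342). The contractile genes and Rgs5 showed small differences, between -0.04 for Rgs5 and 0.15 for Tagln, with overlapping groups. None of the 10 members was called, where a call means here and throughout that the adjusted p was below 0.05 and the groups differed by 1.5 fold or more, and 58 of 14456 genes were called (0.401%). The groups did not overlap for 4 of 10 members, against 22.3% of all genes, and 3 of 10 had an unadjusted p under 0.05, against 14.6% of all genes.

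The genes around Pdgfrb were described by lists written for this tissue with earlier results of these data known. Of 115 listed genes, 98 were matched to rows with a single symbol, by that symbol or by the gene's current RefSeq symbol. Of 5 genes for PDGF ligands and the other receptor, 3 were above Sham-SCI in SCI, and of 13 other pericyte genes 8 were above, with no call in either list. All 11 fibroblast markers, such as collagens, were higher in SCI than in Sham-SCI means, with a median difference of 1.51 against -0.02 over all genes and no call. The mean of these 11 markers was 10.06 to 10.52 in SCI arrays and 8.75 to 9.08 in Sham-SCI arrays, so it moved with Pdgfrb; its part in the Pdgfrb difference was not tested.

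Electrical stimulation left no member called at any day. SCI-ES rats carried a stimulator, which SCI rats did not. ES began 16 weeks after transection and the operation was at 14 weeks, so the 1 and 3 day groups were taken sooner after it than SCI. Between ES days, time since the operation also differed. Stimulation, the device and time since the operation cannot be told apart in these comparisons. The direction differed between the days. After 1 day of ES 9 of 10 members were below SCI (median difference -0.26), and after 3 days 9 of 10 were above it (median 0.33). After 7 days 9 of 10 were again below SCI, though the values were close to it (median -0.06). Such a count can thus arise from small differences. Over all genes these medians were 0.00, -0.01 and 0.01. No gene at all was called in the 3 comparisons (0% each), while 1053, 444 and 410 of 14456 genes had an unadjusted p under 0.05 at 1, 3 and 7 days. All 3 comparisons share the same SCI arrays, so they are not independent of each other. The shift at 1 day was uneven among the arrays. The median deviation of the members from their means over all arrays was -0.53, -0.08 and -0.11 in the 3 arrays of SCI-ES 1 day and -0.14 to 0.19 in the SCI arrays, and without SCI-ES 1 day replicate 1 the median difference was -0.14. The plot of array values by spinal cord group shows the shift down at 1 day and up at 3 days.

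Endothelial and fibroblast markers moved with these shifts. All 12 endothelial markers were below SCI after 1 day of ES (median -0.39) and all 12 were above SCI after 3 days (median 0.47). The array means of the 12 overlapped at 1 day, at 7.38 to 8.20 against 8.01 to 8.53 in SCI. At 3 days they were 8.57 to 8.75. Of 11 fibroblast markers, 10 were below SCI after 1 day (median -0.52) and 8 were above it after 3 days (median 0.16). Other lists moved less or did not rise at 3 days. Their medians at 1 and 3 days were -0.03 and -0.24 (satellite cell), -0.035 and -0.01 (macrophage), -0.08 and -0.01 (Schwann cell) and -0.085 and 0.07 (skeletal muscle). None of them was called, and their part in the members' shifts was not tested.

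**Figure D1:**
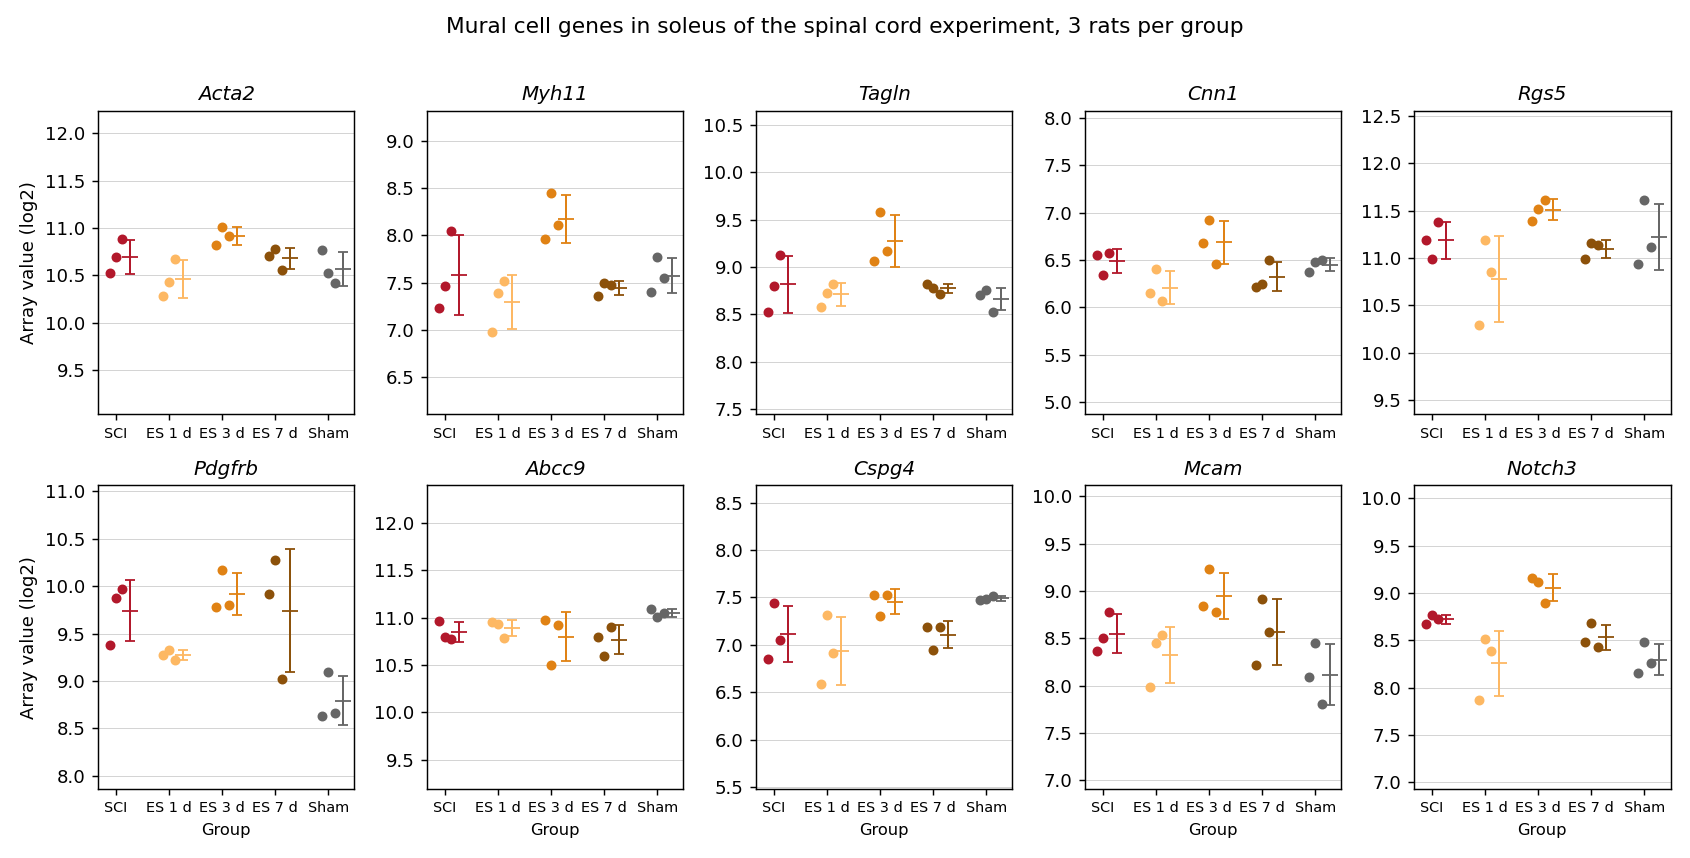
Log2 array values (vertical axis, each panel spanning 3.2 log2 units) of the 10 genes in SCI, SCI-ES 1, 3 and 7 days and Sham-SCI soleus; points are the 3 rats of a group and the bar beside them is the mean with 1 standard deviation. SCI-ES 3 days has the highest mean of the 5 groups for 8 of 10 genes, and Pdgfrb and Notch3 lie higher in SCI than in Sham-SCI on every array.

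Notch3 was the member separated from SCI both at 1 day and at 3 days. Its values were 8.67, 8.77 and 8.72 in SCI, 7.87, 8.51 and 8.39 after 1 day of ES, 9.16, 9.11 and 8.89 after 3 days and 8.48, 8.68 and 8.43 after 7 days. The 1 day arrays were all below and the 3 day arrays all above the SCI arrays, with differences of -0.46 ± 0.15 (adjusted p = 0.614) and 0.33 ± 0.15 (adjusted p = 1). Without SCI-ES 1 day replicate 1, the array at 7.87, the 1 day difference was -0.27 (adjusted p = 0.971). Pdgfrb at 1 day was also below SCI on all arrays, at 9.27, 9.33 and 9.22, with a difference of -0.47 ± 0.26. Non-overlap was thus seen for 2 of 10 members at 1 day, against 11.4% of genes.

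At 3 days the smooth muscle myosin gene Myh11 had values of 7.96, 8.45 and 8.11 in SCI-ES soleus and 7.23, 7.46 and 8.05 in SCI soleus. Its difference of 0.59 ± 0.20 was the largest of the members at that day (adjusted p = 1), and the groups overlapped. Tagln, which encodes the actin-binding protein transgelin, differed by 0.45 ± 0.16, and Rgs5, Mcam and Notch3 were the 3 members without overlap, against 9.12% of genes. After 7 days no member was separated from SCI, against 7.57% of genes, and differences ran between -0.19 for Notch3 and 0.02 for Mcam. The 7 day arrays set against the 1 day arrays gave a median of 0.20 with 9 of 10 members above, no call among 14456 genes (0%), and no separated member against 15.3% of genes.

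The 3 day and 1 day groups were also compared directly, a comparison added after the values had been seen. Here 9 of 10 members had an unadjusted p under 0.05, against 13.1% of genes, and all but Abcc9 were higher at 3 days. Rgs5, a regulator of G protein signalling, had values of 11.39, 11.52 and 11.61 after 3 days and 10.29, 11.19 and 10.85 after 1 day. Myh11 was at 7.96, 8.45 and 8.11 after 3 days against 6.98, 7.39 and 7.52 after 1 day. The groups did not overlap for 8 of 10 members, against 16.6% of genes. The differences were 0.88 ± 0.20 for Myh11, 0.80 ± 0.15 for Notch3 and 0.73 ± 0.21 for Rgs5, and 0.56 for Tagln, 0.48 for Cnn1 and 0.46 for Acta2; the median over members was 0.59.

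No member passed the adjustment in that comparison (lowest adjusted p = 0.206, limma), and no gene was called (0%). Without SCI-ES 1 day replicate 2, the array of that group with the highest Rgs5, Cspg4 and Notch3, 303 genes and 3 members were called: Rgs5 (0.94, adjusted p = 0.0383), Cspg4 (0.70, adjusted p = 0.0468) and Notch3 (0.92, adjusted p = 0.0166). Leaving out SCI-ES 1 day replicate 1, the array with the lowest values of these 3 genes, moved them the other way: Rgs5 differed by 0.49 (adjusted p = 0.691), Cspg4 by 0.35 (adjusted p = 0.702) and Notch3 by 0.60 (adjusted p = 0.67), and the median over members was 0.47. The related lists leaned the same way, but they were written with earlier results of these data known and are no separate support. All 10 other smooth muscle genes and all 13 other pericyte genes were higher at 3 days, each with a median of 0.48. So were all 12 endothelial markers, with a median of 0.83, and all 11 fibroblast markers, with a median of 0.49, none of them called. The medians were -0.19 for satellite cell, -0.03 for macrophage, -0.01 for Schwann cell and 0.07 for skeletal muscle markers. The endothelial markers averaged 8.57 to 8.75 in the 3 day arrays and 7.38 to 8.20 in the 1 day arrays; their part in the members' difference was not tested.

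A test of any difference among the 5 spinal cord groups (moderated F) gave an unadjusted p under 0.05 for 9 of 10 members, against 14.2% of genes, with Abcc9 the exception. The lowest adjusted p was that of Notch3 (0.126, limma). After adjustment no member passed, and 27 genes did (0.187%).

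**Figure D2:**
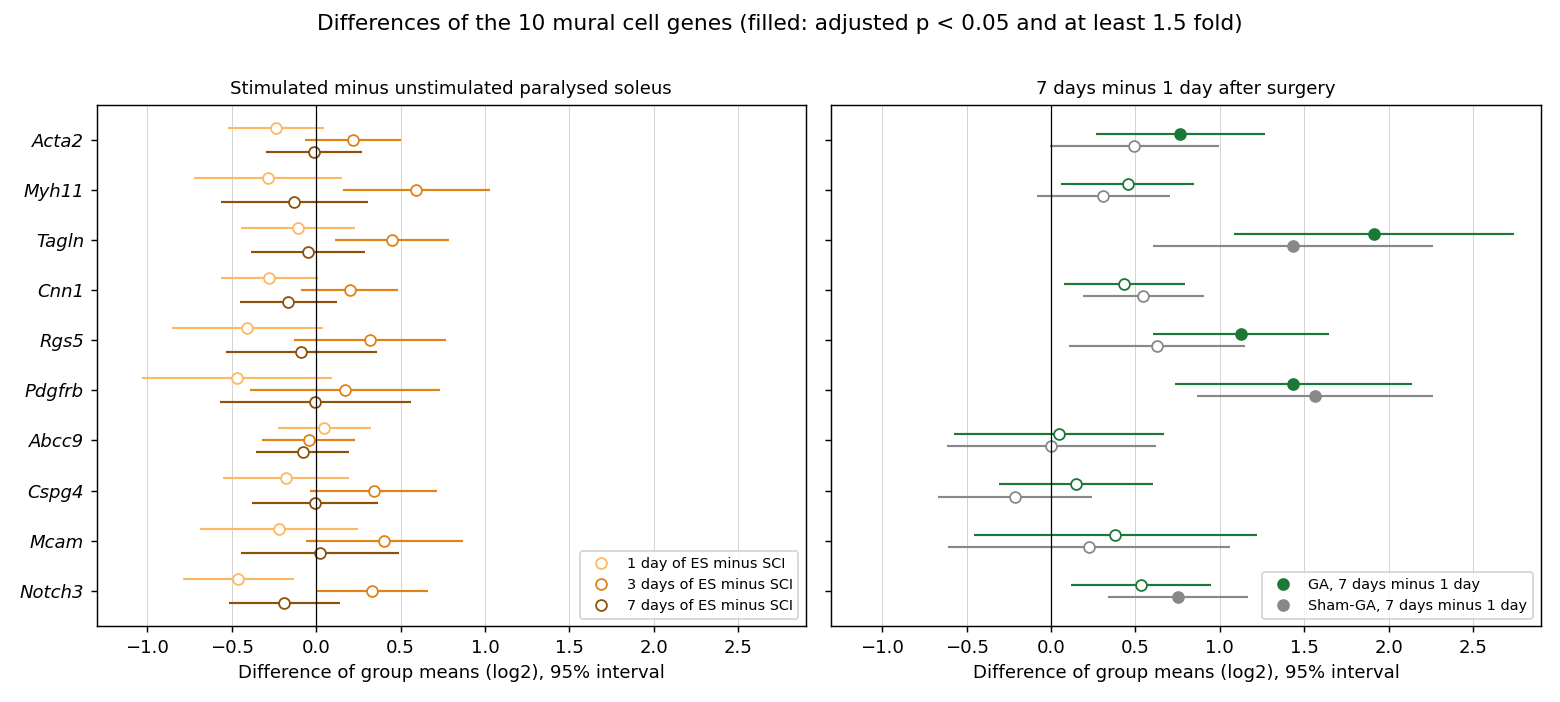
Differences of group means (horizontal axis, log2, with 95% intervals) for each gene: left, SCI-ES at 1, 3 and 7 days minus SCI; right, 7 days minus 1 day after surgery in GA and in Sham-GA. No symbol is filled on the left, and on the right Tagln and Pdgfrb are filled in both arms, Acta2 and Rgs5 in GA and Notch3 in Sham-GA; a symbol filled in 1 arm does not show that the arms differed.

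In the overload experiment members changed with the day after surgery in both arms. This comparison of days was added after the values had been seen. Averaged over both arms, 5 of 10 members were called and all rose at 7 days relative to 1 day: Tagln by 1.67 ± 0.28 (3.19-fold, adjusted p = 0.000501), Pdgfrb by 2.83-fold (95% interval 1.01 to 2.0 on the log2 scale, SE 0.23, adjusted p = 0.0003), Rgs5 by 0.88 ± 0.17 (adjusted p = 0.00191), Notch3 by 0.64 ± 0.14 (adjusted p = 0.00328) and Acta2 by 0.63 ± 0.17 (adjusted p = 0.0129). In the same comparison 1289 of 14451 genes were called (8.92%), with a median change of -0.04 over all genes and 0.56 over the members. Cnn1 (calponin) and Myh11 passed the adjusted test, at 0.49 ± 0.12 and 0.38 ± 0.13, without reaching 1.5 fold. Myh11 passed narrowly (adjusted p = 0.0467, limma), and leaving out 1 array gave adjusted p between 0.0183 and 0.118. Abcc9, Cspg4 and Mcam did not pass, with differences of 0.02, -0.03 and 0.30 and 95% intervals of -0.41 to 0.46, -0.36 to 0.29 and -0.29 to 0.90.

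Tagln had values of 8.59, 8.59 and 8.48 at 1 day after GA, 9.63, 9.1 and 10.5 at 3 days and 10.27, 10.21 and 10.93 at 7 days. In Sham-GA soleus it had 8.45, 9.04 and 8.62 at 1 day, 8.74, 10.12 and 8.71 at 3 days and 9.55, 10.24 and 10.62 at 7 days. All 7 day arrays were above all 1 day arrays in both arms, but the 3 day arrays did not all lie in between. After GA the 3 day array at 10.5 was within the range of the 7 day arrays. In Sham-GA the 3 day arrays at 8.74 and 8.71 were within the range of the 1 day arrays, and the one at 10.12, which is replicate 2 and stood apart as described, was within that of the 7 day arrays.

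Pdgfrb had values of 8.94, 9.11 and 8.95 at 1 day after GA, 9.69, 8.78 and 9.48 at 3 days and 10.31, 10.19 and 10.81 at 7 days. In Sham-GA soleus the values were 8.78, 8.9 and 8.99 at 1 day, 8.52, 9.58 and 8.67 at 3 days and 9.81, 10.34 and 11.22 at 7 days. Days 1 and 7 did not overlap in either arm, and the change was 1.44 ± 0.33 after GA and 1.56 ± 0.33 in Sham-GA.

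Rgs5 was separated between the days after GA and overlapped in Sham-GA. It had 9.86, 10.27 and 9.85 at 1 day after GA, 10.75, 10.49 and 10.51 at 3 days and 11.26, 10.76 and 11.33 at 7 days, against 9.78, 10.75 and 10.67, then 10.77, 10.75 and 10.64, then 10.55, 11.3 and 11.23 in Sham-GA at the same days. The low Sham-GA value at 1 day is replicate 1, which also stood apart. Rgs5 was called after GA (1.13 ± 0.25, adjusted p = 0.00683) and not in Sham-GA (0.63 ± 0.25, adjusted p = 0.118), but the test of a GA effect that differs among days gave an adjusted p of 0.823 for Rgs5, so the arms were not shown to differ.

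Acta2, the smooth muscle actin gene, had 10.61, 10.62 and 10.78 at 1 day after GA, 11.23, 10.82 and 11.51 at 3 days and 11.26, 11.24 and 11.81 at 7 days, against 10.79, 10.64 and 10.7, then 10.5, 11.35 and 10.7, then 10.84, 11.17 and 11.59 in Sham-GA at the same days. The 7 day arrays were all above the 1 day arrays in both arms. Its call after GA (0.77 ± 0.23, adjusted p = 0.0433) was lost without any 1 of the 6 GA arrays (adjusted p between 0.0567 and 0.193), and in Sham-GA the change was 0.49 ± 0.23 (adjusted p = 0.208). Notch3 had 7.86, 8.11 and 8.34 at 1 day after GA, 8.15, 7.74 and 8.47 at 3 days and 8.67, 8.35 and 8.89 at 7 days, against 7.64, 7.99 and 7.86, then 8.0, 8.44 and 8.15, then 8.51, 8.46 and 8.78 in Sham-GA. Its 7 day arrays were also above the 1 day arrays in both arms. It was called in Sham-GA (0.75 ± 0.19, adjusted p = 0.0227) and not after GA (0.53 ± 0.19, adjusted p = 0.0884). The test of a GA effect that differs among days gave an adjusted p of 0.851 for Acta2 and 0.833 for Notch3, so for these genes too the arms were not shown to differ.

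**Figure D3:**
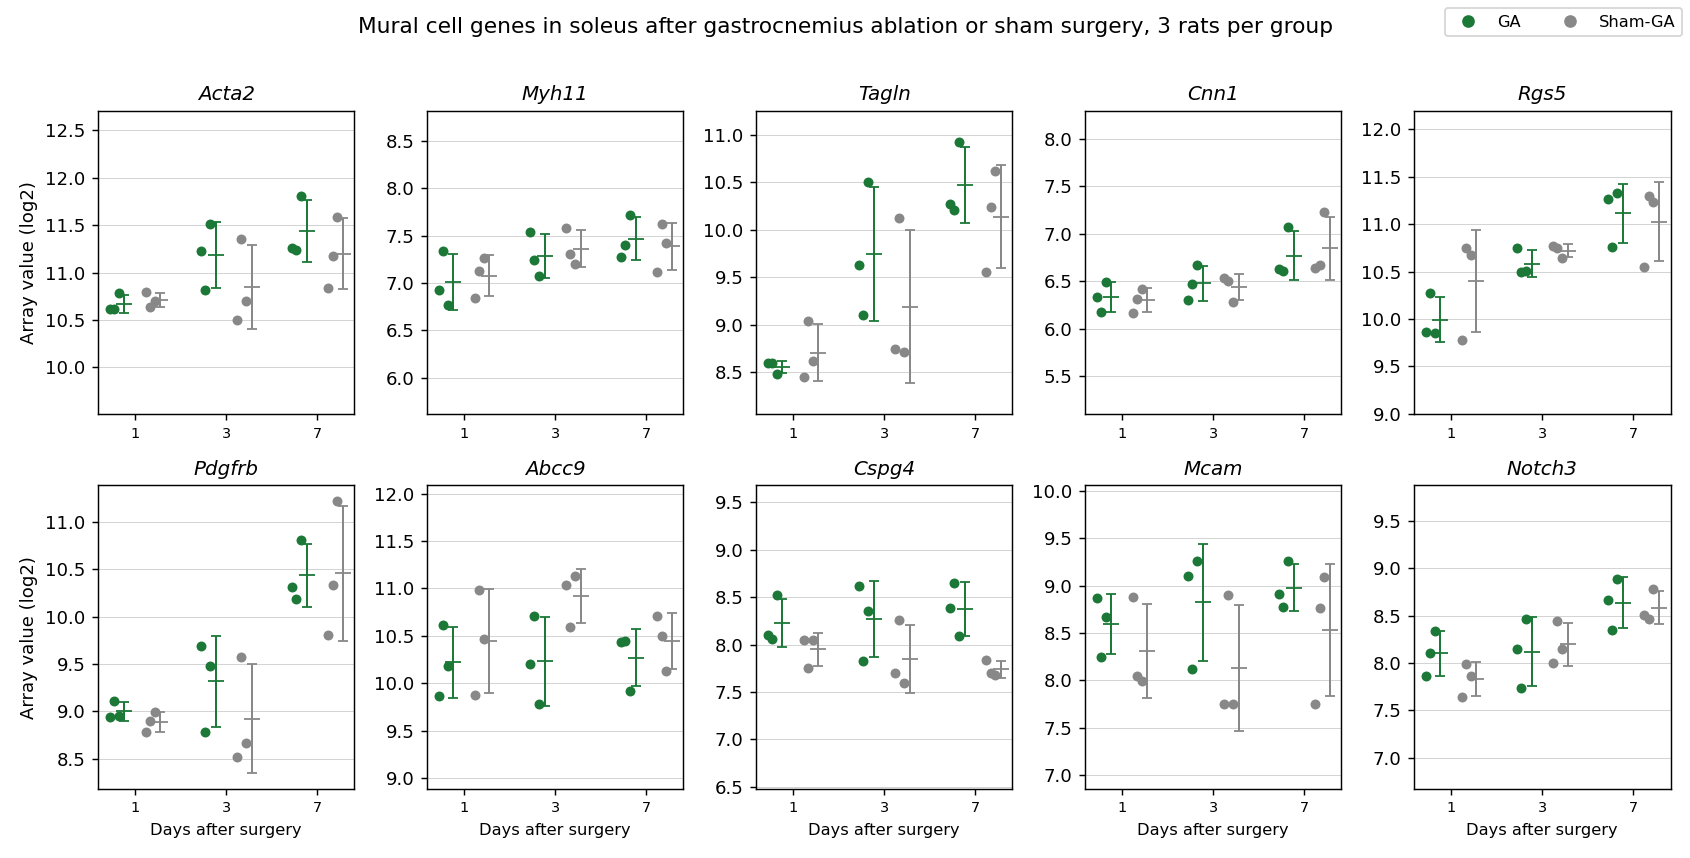
Log2 array values (vertical axis, each panel spanning 3.2 log2 units) of the 10 genes by day following GA (green) or Sham-GA (grey) surgery; points are the 3 rats of a group and the bar beside them is the mean with 1 standard deviation. Acta2, Tagln, Cnn1, Pdgfrb and Notch3 lie higher at 7 days than at 1 day on every array of both arms. Cspg4 lies higher after GA than after Sham-GA at 1 and 7 days.

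Within the arms, GA at 7 days against GA at 1 day gave 4 calls among the members (Tagln, Pdgfrb, Rgs5 and Acta2), with 8.6% of genes called, and 6 of 10 members did not overlap, against 35.1% of genes. Sham-GA at 7 days against Sham-GA at 1 day gave 3 calls (Pdgfrb, Tagln and Notch3), with 6.57% of genes called, and 5 of 10 members did not overlap, against 28.5% of genes. Leaving out single arrays ended several of these calls. After GA, Pdgfrb was lost without GA 7 days replicate 3 (1.25, adjusted p = 0.0524). In Sham-GA, Tagln was lost without Sham-GA 7 days replicate 2 or 3 or Sham-GA 1 day replicate 1 or 3 (adjusted p between 0.078 and 0.138), and Notch3 without Sham-GA 7 days replicate 3 or Sham-GA 1 day replicate 1 or 3 (adjusted p between 0.0589 and 0.107). Over both arms, Tagln, Pdgfrb and Rgs5 stayed called whichever array was left out, Acta2 fell under 1.5 fold without GA 7 days replicate 3 or Sham-GA 7 days replicate 3, and Notch3 without GA 1 day replicate 1 or GA 7 days replicate 3.

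Other genes of these cell types, from the same lists, also differed between the days, which is no separate support. Of 10 other smooth muscle genes, 9 were higher at 7 days over both arms and 7 were called, led by Myl9, a myosin light chain (1.61, adjusted p = 1.72e-05), Aoc3 (1.42, adjusted p = 0.00278), Cald1, which encodes caldesmon (1.07, adjusted p = 0.00105), and Actg2, the enteric smooth muscle actin (0.82, adjusted p = 0.00577). Of 13 other pericyte genes, 12 were higher and 3 were called: Tbx18 (1.05), Gucy1a1, a subunit of the nitric oxide receptor (0.71), and Vtn (0.70). All 5 genes for PDGF ligands and the other receptor were higher, with Pdgfd (1.40, adjusted p = 0.00077) and Pdgfc (0.64, adjusted p = 0.045) called.

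The Notch pathway list, which holds receptors, ligands and target genes, and the serum response factor list did not follow as a group. Of 11 other Notch pathway genes, 5 were higher over both arms, and the ligand Jag1 was the call (0.94, adjusted p = 0.0026). Within the arms, Jag1 (1.06), Notch2 (0.77) and Hey1 (0.71) were called higher in Sham-GA, and Dll4 (-0.75) was called lower after GA. No gene passed the test of a GA effect that differs among days, so the arms were not shown to differ. Of 7 genes of the serum response factor and myocardin list, 5 were higher without a call, and Srf itself (-0.65, adjusted p = 0.000214) and the TGF-beta effector Smad3 (-0.83, adjusted p = 0.00115) were lower at 7 days and called.

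Markers of other cells moved over the same interval. All 11 fibroblast markers were higher at 7 days, 9 were called, and their median change was 2.47; Thy1 (3.78), Col1a1 (2.99), Col3a1 (2.74) and Col1a2 (2.69) led. The mean of the 11 markers was 11.08 to 11.33 at 7 days and 8.70 to 9.45 at 1 day in GA arrays, and 11.18 to 11.47 at 7 days and 9.10 to 9.45 at 1 day in Sham-GA arrays. Of 12 endothelial markers, 10 were higher and 2 were called (Tek at 0.68 and Tie1 at 0.66), with a median of 0.25. Of 8 macrophage markers, 3 were called higher and 1 lower, and of 9 skeletal muscle markers none was called. The part of the fibroblast and other markers in the members' change was not tested. Both arms were operated on and no muscle was taken before surgery, so the time since surgery and anything else that differed between collection days cannot be told apart.

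Ablation itself, GA against Sham-GA at the same day, left no member called. At 1 day 8 of 14451 genes were called (0.0554%), and at 3 and 7 days and for the mean over days none was (0% each), with 2383, 380 and 2782 genes at an unadjusted p under 0.05. The members' median difference was 0.00 at 1 day, 0.19 at 3 days, 0.09 at 7 days and 0.12 for the mean.

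Cspg4 was the member with the lowest adjusted p for the mean over days. Its values were 8.1, 8.06 and 8.52 at 1 day, 8.62, 7.83 and 8.35 at 3 days and 8.39, 8.65 and 8.09 at 7 days after GA, against 8.05, 7.75 and 8.05, then 7.7, 8.26 and 7.59, then 7.84, 7.7 and 7.68 in Sham-GA. The arms were separated at 1 day, narrowly (8.06 against 8.05), and at 7 days, with adjusted p of 0.602 and 0.999 (limma). No other member was separated at those days. The share of 1 of 10 members was not above that of all genes, 16.6% at 1 day and 11.2% at 7 days. No member was separated at 3 days, against 13.5% of genes. Over the 3 days the difference was 0.44 ± 0.12 (unadjusted p = 0.002657, adjusted p = 0.166). It passed the adjusted test, short of 1.5 fold, without Sham-GA 3 days replicate 2 (0.51, adjusted p = 0.0292) and without both shams that stood apart (0.53, adjusted p = 0.00772). The shams left out resembled GA arrays, which by itself tends to widen the difference, so these passes are no separate support.

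The shams that stood apart also weighed on Mcam and Abcc9. At 3 days Mcam had 9.1, 8.12 and 9.26 after GA and 7.75, 8.9 and 7.75 in Sham-GA, where 8.9 is replicate 2. Abcc9 had 10.2, 10.71 and 9.78 after GA and 11.04, 10.59 and 11.13 in Sham-GA, where 10.59 is replicate 2. In each gene GA replicate 2 lay on the Sham-GA side as well. The differences at 3 days were 0.69 ± 0.39 for Mcam (adjusted p = 0.359) and -0.69 ± 0.29 for Abcc9 (adjusted p = 0.29). Without Sham-GA 3 days replicate 2 they were 1.08 for Mcam (adjusted p = 0.0811) and -0.86 for Abcc9 (adjusted p = 0.0873).

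Without Sham-GA 1 day replicate 1 and Sham-GA 3 days replicate 2, an alternative added after seeing the data, Mcam was called for the mean over days (0.70, adjusted p = 0.0216), against 0.48 ± 0.23 (adjusted p = 0.264) with all arrays. In that setting 1113 genes were called, against 0 of 14451 genes with all arrays, so the gain was not particular to Mcam. These 2 shams resembled GA arrays, and their removal tends to widen the difference. Abcc9 passed the adjusted test there short of 1.5 fold (-0.51, adjusted p = 0.0284). With Sham-GA 3 days replicate 2 alone left out, 1286 genes but still no member were called at 3 days. The labels give no reason for the position of these arrays. Whether the GA effect differed among days was tested by a moderated F, in which no gene passed (0%), with 1011 genes and no member at an unadjusted p under 0.05.

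The effect of 1, 3 or 7 days of ES was set against that of GA at the same day, as the difference of the 2 differences in a fit of all 33 arrays. The SCI-ES and SCI rats had all had the tendon cut before ES began. No member passed; 8 of 14453 genes were called at 1 day (0.0554%) and none at 3 or 7 days (0% each), with 1369 and 454 genes at an unadjusted p under 0.05. The largest member values were -0.73 ± 0.25 for Notch3 at 1 day (adjusted p = 0.198), 0.67 ± 0.28 for Myh11 at 3 days (adjusted p = 0.481) and -0.64 ± 0.29 for Cspg4 at 7 days (adjusted p = 0.999).

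The members did not vary as 1 block from rat to rat. With each group's mean removed, Acta2 and Tagln had the highest correlation over the 33 arrays (r = 0.87), followed by Acta2 with Mcam (0.81), Acta2 with Pdgfrb (0.77) and Tagln with Pdgfrb (0.73). Myh11 went with Rgs5 (0.69) more than with Acta2 (0.22) or Tagln (0.30). Abcc9 ran opposite to Mcam (-0.82), Acta2 (-0.70), Tagln (-0.56) and Pdgfrb (-0.55). Without the 2 shams that stood apart, Acta2 with Tagln was 0.85, Myh11 with Rgs5 0.68 and Abcc9 with Mcam -0.77 over 31 arrays. The median was 0.36 among the 4 contractile genes, 0.16 among the 5 pericyte genes and 0.29 between the sets. These points share arrays and normalization, and the values are descriptions.

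**Figure D4:**
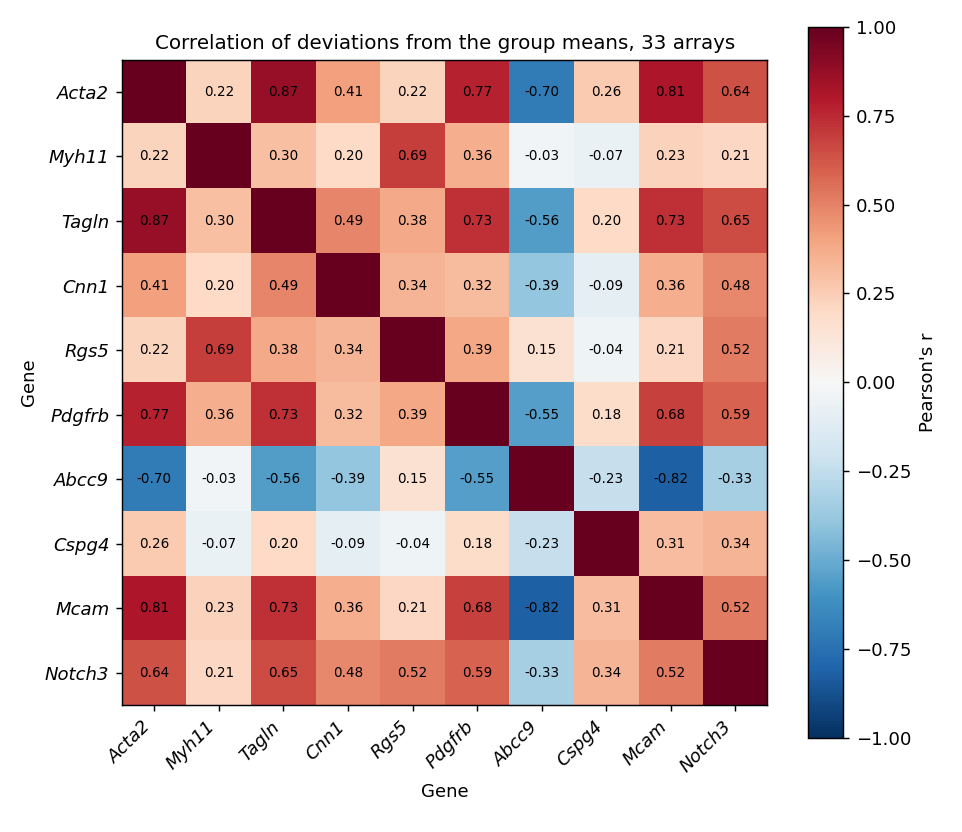
Pearson's r between the 10 genes (both axes) after each group's mean was removed, over 33 arrays; red is positive and blue negative. Acta2, Tagln, Pdgfrb, Mcam and Notch3 have r between 0.52 and 0.87 with each other, and the Abcc9 row is negative with every gene but Rgs5 (0.15).

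Among 9880 other genes with a mean of at least 6, those whose deviations were most like the mean of the 4 contractile genes were Abhd10 (r = 0.90), Or51e1 (0.89), Kcnmb1 (0.88), Prnd (0.86), Dlc1 (0.84), Fnbp1l (0.84), Ptn (0.83) and Ctnnd1 (0.83). Kcnmb1, which encodes the beta subunit of the calcium-activated potassium channel of smooth muscle, was also in the list of other smooth muscle genes. Those most like the mean of Rgs5, Pdgfrb, Abcc9, Cspg4 and Notch3 were Itga1 (0.77), Robo4 (0.77), Fhl5 (0.76), Rgs4 (0.75), Notch4 (0.73), Pde2a (0.72), Angptl2 (0.72) and Tmem204 (0.70). Robo4 was among the endothelial markers and Rgs4 among the other pericyte genes. Both means used unscaled deviations, so members with a wider spread weighed more (pooled standard deviation 0.415 for Tagln against 0.19 for Cnn1). The second mean also joined Pdgfrb and Abcc9, which ran opposite (r = -0.55).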

How the data were processed

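RNA of each soleus was hybridised to an Affymetrix rat array (1 array per rat). The deposited values are log2 expression per transcript cluster, which the authors obtained with RMA in oligo, according to the submitters' processing notes (versions not given in the sources used here): background correction, quantile normalization and median polish. The genome build is not given in the sources used here. Of 29214 rows, 15310 had 1 gene symbol in the platform annotation, 323 several and 13581 none; the brightest row stood for each of 14506 genes. Quantile normalization makes all arrays share 1 distribution, so an equal shift of all genes would not be seen. Low array number limits the precision.

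Genes with a mean of at least 3 were fitted with limma 3.58.1 (lmFit, eBayes; R 4.3.3) in 1 model per experiment, with Benjamini-Hochberg adjustment over all genes tested; the differences between ES and GA effects came from 1 fit of all 33 arrays. A call needed an adjusted p under 0.05 and at least 1.5 fold. The procedure was tested on simulated data: for SCI-ES 3 days against SCI-ES 1 day, 62.7% of genes changed by 2 fold and 26.9% of those changed by 1.5 fold were called, and for 7 days against 1 day over both arms 80.6% and 31.3%. The simulated noise was independent between genes, and only genes with a mean of at least 6 were changed. Deviations shared by many genes of a real array were not simulated, so these rates may not hold for these data. P-values measure the spread between the samples the labels list. The members and the context lists were chosen with earlier results of these data known. Named genes were all members, up to 4 called genes per context list ranked by change, and the 8 genes most like each set. Alternatives covered filters, normalization, fits, row choice, the replicate number as a block and leaving out arrays.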

Additional observations from a re-analysis of the deposited data

How the results depend on the processing

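No member changed direction past the test under any alternative, and counting pairwise and mean differences of members with an unadjusted p under 0.05 in the comparison, 19 values under the alternatives lost a call and 5 gained one. These came from leaving out an array, except that Acta2 after GA at 7 days against 1 day missed the threshold after a second quantile normalization (0.73, adjusted p = 0.0567). Outside that count, Mcam gained a call for the mean GA effect without the 2 shams that stood apart, and Notch3 and Pdgfrb each gained one in the F test among the spinal cord groups.

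Counts of genes called depended on the fit. For SCI against Sham-SCI, 58 became 93 with a variance filter, 142 in 1 fit of all 33 arrays, 26 with the replicate number as a block and 154 in a fit of the 2 groups alone. In 1 fit of all 33 arrays, SCI-ES 1 day against SCI gave 3, SCI-ES 7 days against SCI-ES 1 day 13, SCI-ES 3 days against SCI-ES 1 day 3, GA against Sham-GA at 1 day 81 and the mean GA effect 5. GA against Sham-GA at 1 day, 8 genes, gave 13 after a second quantile normalization, 1 with the replicate block and 0 in a fit of the 2 groups alone. In a fit of the 2 groups alone, GA against Sham-GA at 7 days gave 1 and Sham-GA at 7 days against 1 day 579 in place of 949. The test among the 5 spinal cord groups, 27 genes, gave 8 with the replicate block and 4 with an ordinary F. Without the 2 shams that stood apart, the mean GA effect gave 1113 genes and 1 member. The cause of these shifts was not tested. Same-numbered arrays of different groups had a median correlation of deviations of -0.05 (spinal cord, 30 pairs) and -0.07 (overload, 45 pairs), so the numbers were not taken to pair the rats; the block changed no member's call.

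Leaving out 1 array at a time, genes called ranged between 5 and 65 for SCI against Sham-SCI, 0 and 27 for SCI-ES 1 day against SCI, 0 and 99 for SCI-ES 7 days against SCI-ES 1 day, 0 and 303 for SCI-ES 3 days against SCI-ES 1 day, 1 and 182 for GA at 1 day, 0 and 1286 for GA at 3 days, 0 and 493 for the mean GA effect, 1 and 102 for ES minus GA at 1 day, 0 and 1 at 7 days, 455 and 902 for Sham-GA at 7 days against 1 day, 0 and 194 among the 5 spinal cord groups and 0 and 2 for a GA effect differing among days. Members called ranged between 0 and 3 for SCI-ES 3 days against 1 day, 2 and 3 for GA at 7 days against 1 day, 1 and 5 for Sham-GA, 3 and 5 over both arms and 0 and 1 among the 5 spinal cord groups (Notch3 without SCI-ES 1 day replicate 2, Pdgfrb without SCI-ES 7 days replicate 3). The members' median ranged between -0.014 and 0.28 for GA at 7 days, -0.078 and 0.27 for ES minus GA at 3 days and 0.33 and 0.66 for Sham-GA at 7 days against 1 day. For SCI against Sham-SCI, 1 array could bring the members' median to -0.005 (lowest) or 0.20 (highest).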
